A study of Mus musculus with 2 samples.

Results

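*Spp1*, which encodes osteopontin, was followed together with 9 other genes of bone matrix and of the osteoblast lineage in single cells from amputated mouse digits: *Ibsp*, *Bglap*, *Bglap2*, *Dmp1*, *Mepe*, *Phex*, *Alpl*, *Sp7* and *Runx2*. The 10 genes were taken by symbol from the 33696 genes listed for both libraries, and each symbol was found once. The cells came from neonatal ICR mice of both sexes whose hindlimb digits 2 and 4 were amputated through the middle phalanx (P2) at PN3, a level that does not regenerate. A bead soaked in FGF8 (500 ng/µl) or in 0.1% BSA in PBS, the control, was placed in the wound at PN7, and tissue distal to the stump was collected 24 h later, at PN8. Each condition was 1 library of cells pooled from 20 digits of 5 mice, so treatment, animals, dissection and library cannot be told apart and no comparison below has a replicate check. Fewer transcripts of a gene per cell and fewer cells that express it can both lower a summed level, and the share of cells is given beside it for that reason.

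Osteopontin, bone sialoprotein (*Ibsp*), *Dmp1* and *Mepe* are secreted, acidic, integrin-binding phosphoproteins of mineralised matrix and belong, with *Dspp*, to the SIBLING proteins. Osteocalcin, from *Bglap* and *Bglap2*, is made by mature osteoblasts, and *Dmp1*, *Mepe* and the endopeptidase *Phex* are known from osteocytes, where they bear on phosphate handling. *Alpl* encodes tissue non-specific alkaline phosphatase, which removes the mineralisation inhibitor pyrophosphate, while *Runx2* and *Sp7* (osterix) are transcription factors needed to form osteoblasts. *Spp1* is not restricted to bone: macrophages, hypertrophic chondrocytes and wound cells make it too.

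The 4 SIBLING genes among the members lie on the plus strand of chromosome 5 (GRCm39, GENCODE vM39), within 243.9 kb from 104345340 to 104589235, in the order *Dmp1*, *Ibsp*, *Mepe* and *Spp1*. *Spp1* itself spans chr5:104582165-104589235. The osteocalcin genes are a cluster of near-identical copies on the minus strand of chromosome 3, with *Bglap* at chr3:88290808-88291771 and *Bglap2* at chr3:88285043-88286060. Over the last 250 bases of their transcripts, the end that a 3′ library reads, *Bglap* and *Bglap2* differed at 1 base (99.6% identity), so the split of reads between them is uncertain. *Spp1*, *Bglap2* and *Dmp1* had log2 ratios of FGF8 over BSA above 1 in osteoblast-like cells, described below. The ratio of *Bglap* was -0.21 in fibroblast-like and 4.25 in chondrocyte-like cells. Without the cell with the most *Spp1* of each library both lay above 0, at 1.21 and 4.24. In both groups its sign differed between cells called female and cells called male, as given below. The promoters of these genes are shown. Each is read 5′ to 3′ on the gene's strand from GRCm39 and covers the 250 bases before the start of the canonical transcript. For *Bglap* the last 31 of these bases lie in another annotated exon and are left out. Capitals mark the Runx motif TGTGGT, which appears here as its reverse complement ACCACA.
Spp1, chr5:104581915-104582164, plus strand: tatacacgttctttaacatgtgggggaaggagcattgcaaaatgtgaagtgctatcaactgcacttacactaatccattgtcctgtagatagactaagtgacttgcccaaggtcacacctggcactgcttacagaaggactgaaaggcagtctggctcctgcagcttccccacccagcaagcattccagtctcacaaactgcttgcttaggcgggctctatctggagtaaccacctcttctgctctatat
Bglap, chr3:88291772-88291990, minus strand: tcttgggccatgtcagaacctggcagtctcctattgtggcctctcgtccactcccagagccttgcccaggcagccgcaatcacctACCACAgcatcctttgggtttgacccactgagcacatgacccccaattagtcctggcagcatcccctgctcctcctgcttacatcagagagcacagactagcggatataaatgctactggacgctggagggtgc
Bglap2, chr3:88286061-88286310, minus strand: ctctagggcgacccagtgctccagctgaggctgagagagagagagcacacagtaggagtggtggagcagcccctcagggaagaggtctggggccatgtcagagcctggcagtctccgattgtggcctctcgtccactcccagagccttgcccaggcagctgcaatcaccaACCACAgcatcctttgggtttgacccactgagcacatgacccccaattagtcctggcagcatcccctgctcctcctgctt
Dmp1, chr5:104350226-104350475, plus strand: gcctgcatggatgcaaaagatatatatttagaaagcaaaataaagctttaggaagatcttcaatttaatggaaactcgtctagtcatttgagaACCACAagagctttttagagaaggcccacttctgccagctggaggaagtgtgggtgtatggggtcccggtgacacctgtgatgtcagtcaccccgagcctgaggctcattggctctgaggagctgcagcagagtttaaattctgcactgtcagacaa
The Runx motif was searched on both strands and lay 165 bases before the start of *Bglap*, 80 before that of *Bglap2* and 157 before that of *Dmp1*. *Mepe* held it at 118 and 80 bases, and the windows of *Spp1*, *Ibsp*, *Phex*, *Alpl*, *Sp7* and *Runx2* did not hold these letters. Thus 4 of the 10 members carried it, beside 13.0% of 21751 promoters of protein-coding genes. The windows of *Bglap* and *Bglap2* share the stretch around the match, so these copies are not independent cases. The AP-1 motif TGANTCA, searched on both strands too, was in none of the 10 windows, so no match overlapped a Runx match, and it was in 6.17% of all promoters. A match is a run of letters and not a measured binding site.

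The FGF8 library held 6715 cells after filtering, with a median of 12251 UMIs (unique molecular identifiers, each standing for 1 captured transcript), and the BSA library 3252 cells with a median of 15377. Cells were grouped without use of the 10 genes, and a group is called by a cell type only on the strength of other markers. Among cells with a sex call from *Xist* or Y-linked genes, the FGF8 library had 24.6% called female and the BSA library 79.3%, so the pools differed in sex makeup, and values within each sex are given where they move a result. The libraries shared 4 barcodes among these cells. Scrublet called 0 doublets among these cells, too few for the caller to be relied on, and doublets were not removed. In the FGF8 library 56.1% of erythroid-like cells, which should lack *Spp1*, had a *Spp1* UMI at a median depth of 6983 UMIs per cell, beside 6.10% in the BSA library at a median depth of 18726. The same share was 64.9% and 6.45% in smooth muscle or pericyte-like cells. These cells held 0.869 and 1.01 *Spp1* UMIs on average in the FGF8 library, and a share of cells with any *Spp1* UMI is therefore read as background at this level. A cell with 10 or more *Spp1* UMIs is called *Spp1*-high below, a threshold chosen after seeing the data and reached by 0 of 613 erythroid-like FGF8 cells and 1 of 285 smooth muscle or pericyte-like FGF8 cells.

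Levels are given as CPM, the UMIs of a gene per 1000000 UMIs of a cell group, and differences as the log2 ratio of FGF8 over BSA with a 95% interval that covers counting error only. *Spp1* was highest in chondrocyte-like cells of the FGF8 library, at 36292 CPM against 3153 CPM in the BSA library, a log2 ratio of 3.52 (3.48 to 3.57). Osteoblast-like cells followed, at 17735 CPM against 4708 CPM, a log2 ratio of 1.91 (1.89 to 1.94). All fibroblast-like cells together, of which the osteoblast-like cells are a part, held 2626 CPM in the FGF8 library and 507 CPM in the BSA library, a log2 ratio of 2.37 (2.35 to 2.39). In both libraries chondrocyte-like and osteoblast-like cells stood above every other group, but their order was reversed, with osteoblast-like cells first in the BSA library.

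Among the other fibroblast-like cells, the subcluster led by *Prg4* and *Mmp3* (lubricin, the joint surface proteoglycan, and stromelysin-1) had the most *Spp1*, at 3000 CPM in the FGF8 library and 684 CPM in the BSA library. Its log2 ratio was 2.13 (2.10 to 2.17). After *Prg4* and *Mmp3* its leading genes included *H1f5*, *Plk1*, *Ube2c* and *Aurkb*, genes of histones and mitosis. It was also deep, with medians of 34169 and 31263 UMIs per cell, against 17354 and 18950 in all fibroblast-like cells. The share of *Spp1*-high cells given below is not corrected for depth. Macrophage-like cells held 895 CPM and 163 CPM, a log2 ratio of 2.46 (2.36 to 2.55). The subclusters led by *Fmod* and *Comp*, *Lpl* and *Dlk1*, and *Zfp536* and *Nrg1* held 153 to 188 CPM in the FGF8 library, close to the 186 CPM of keratinocyte-like cells, and 4.14 to 10.9 CPM in the BSA library. Erythroid-like cells, at 115 CPM and 6.90 CPM, and smooth muscle or pericyte-like cells, at 79.0 CPM and 4.14 CPM, had higher *Spp1* in the FGF8 library by log2 ratios of 4.06 and 4.25 although they should lack it. Ratios of groups at such levels are therefore not read as expression. The subcluster led by *Lars2* and *Camk1d*, whose cells had medians of only 1647 and 1742 UMIs, held 1711 CPM and 21.6 CPM, and neutrophil-like cells 518 CPM and 111 CPM. Taking the mean UMIs per cell of these 2 background types off every cell left the ratio at 3.52 in chondrocyte-like, 2.36 in fibroblast-like and 2.38 in macrophage-like cells.

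**Figure D1:**
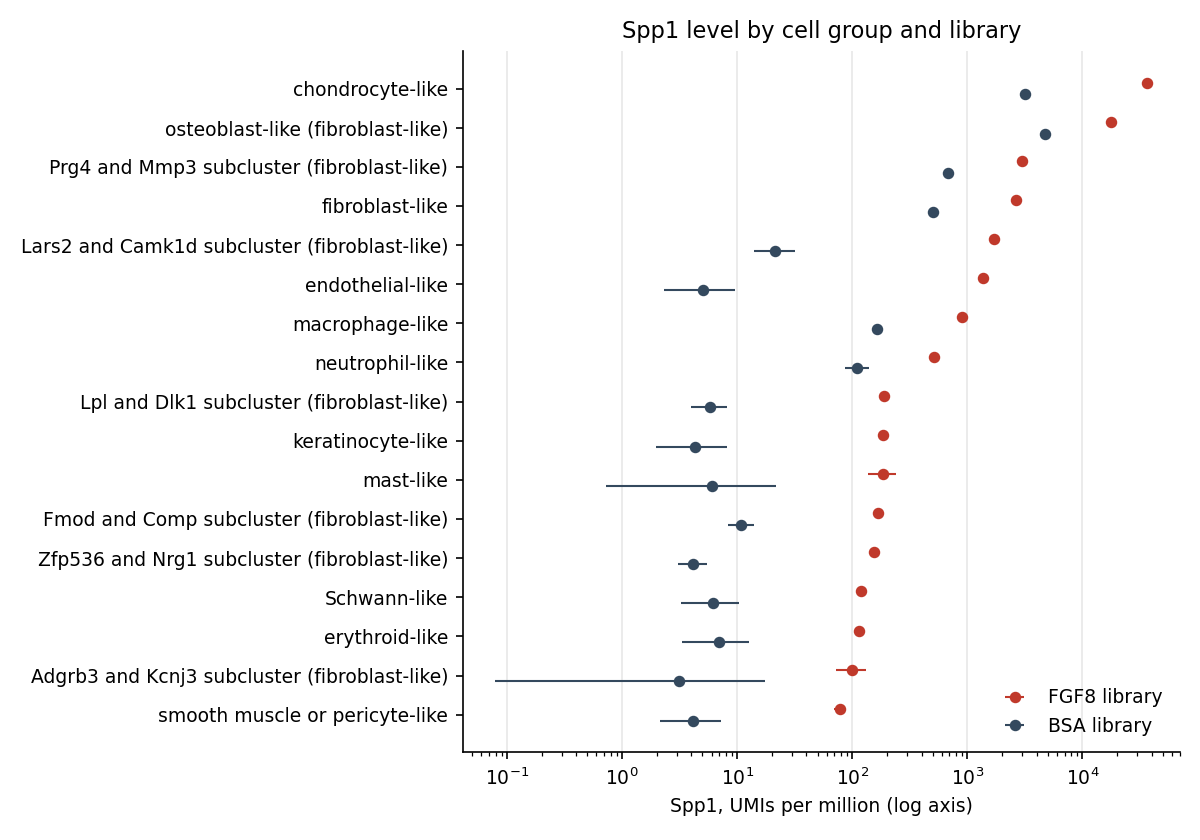
Level of *Spp1* in CPM (log axis) in each cell group, with FGF8 in red and BSA in grey; bars are exact 95% Poisson intervals for counting error, and the groups named fibroblast-like in brackets are subclusters of that type. The FGF8 point lies to the right of the BSA point in every group, from 79.0 CPM in smooth muscle or pericyte-like cells to 36292 CPM in chondrocyte-like cells.

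The number of cells rich in *Spp1* differed as well as the summed level. Of 133 chondrocyte-like FGF8 cells, 107 were *Spp1*-high (80.5%, exact 95% binomial interval 72.7 to 86.8%), against 18 of 53 in the BSA library (34.0%, 21.5 to 48.3%). In osteoblast-like cells the share was 35.8% (28.4 to 43.7%) of 162 cells and 16.0% (9.43 to 24.7%) of 100 cells. The *Prg4* and *Mmp3* subcluster had 45.2% (42.2 to 48.3%) and 10.9% (7.51 to 15.1%), and macrophage-like cells 12.1% (10.0 to 14.4%) and 4.68% (2.96 to 7.001%). These 4 groups held a larger share of *Spp1*-high cells in the FGF8 library, each by more than counting error. In the *Zfp536* and *Nrg1* subcluster 1.12% of 891 FGF8 cells and 0 of 634 BSA cells were *Spp1*-high. Endothelial-like cells show why both measures are needed: at 1381 CPM in the FGF8 library, 5 of their 142 cells were *Spp1*-high, and 1 cell held 36.2% of the UMIs.

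**Figure D2:**
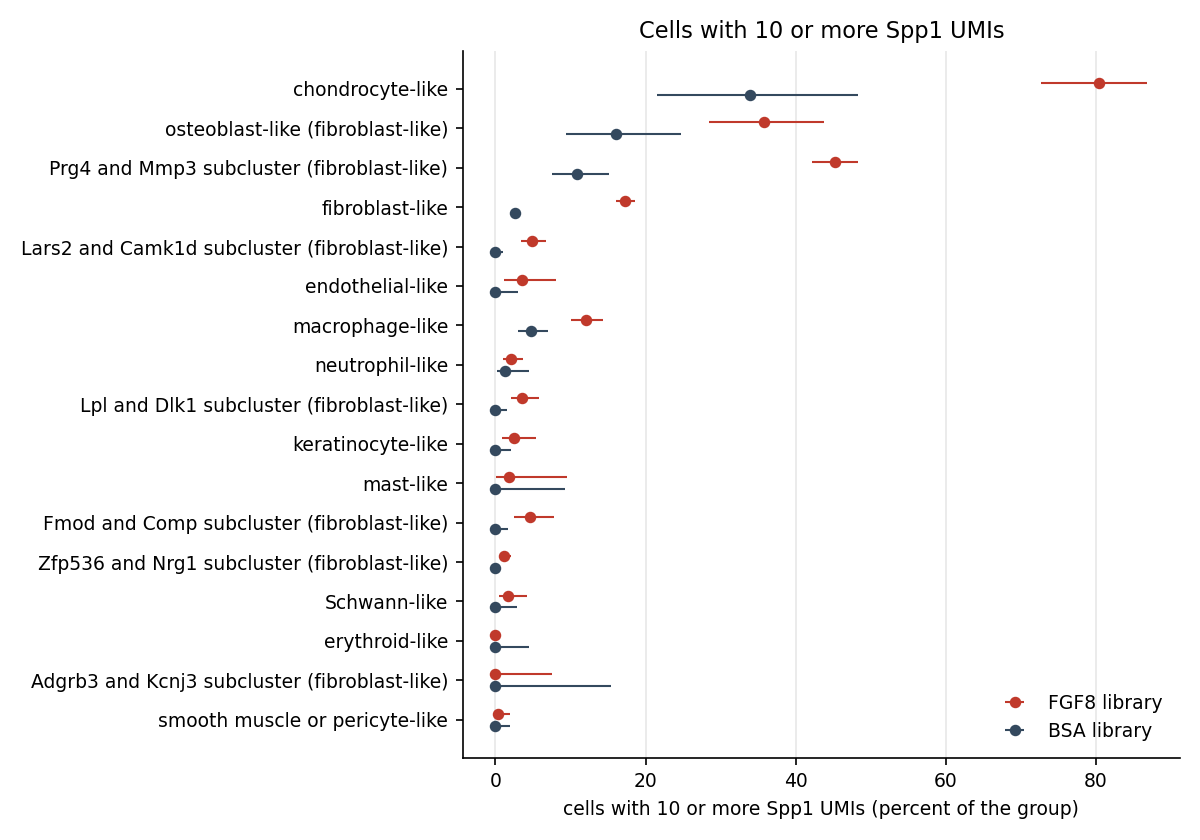
Percent of cells of each group with 10 or more *Spp1* UMIs, FGF8 in red and BSA in grey, with exact 95% binomial intervals. The share is highest in chondrocyte-like cells of the FGF8 library (80.5%), and the types that should lack the gene lie at or near 0 in both libraries.

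*Spp1* was also concentrated within groups. In the FGF8 library the 10% of fibroblast-like cells with the most *Spp1* held 94.2% of its UMIs, and in the BSA library 99.6%. A single BSA cell, osteoblast-like and called female, held 4765 of the 18141 fibroblast-like *Spp1* UMIs of that library (26.3%) and 40.1% of those of osteoblast-like cells. *Spp1* made up 14.2% of its 33589 UMIs, and the same cell held 2630 UMIs of *Bglap*, 150 of *Ibsp*, 22 of *Dmp1* and 18 of *Bglap2*. Its *Bglap* UMIs were 69.4% of all in fibroblast-like BSA cells. In chondrocyte-like BSA cells 1 cell held 53.0% of the *Spp1* UMIs, 2619 of 4937, with 0 UMIs of *Ibsp*, *Bglap* and *Dmp1*. Leaving out the cell with the most *Spp1* of each library moved the log2 ratio to 2.76 in fibroblast-like, 2.49 in osteoblast-like and 4.54 in chondrocyte-like cells.

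*Ibsp*, *Bglap*, *Bglap2* and *Dmp1* lay mostly in the osteoblast-like group. This group of 162 FGF8 and 100 BSA cells was separated at a finer clustering chosen after seeing the data and named from *Omd* and 4 further markers that are not members, although *Alpl*, *Spp1* and *Runx2* were among the genes that set it apart. It held 80.4% of the *Ibsp* UMIs of the FGF8 library and 79.5% of those of the BSA library. For *Bglap* the shares were 87.8% and 83.8%, and for *Dmp1* 77.5% and 62.5%. *Alpl*, *Sp7*, *Runx2* and *Phex* were spread more widely, with 37.0%, 35.7%, 19.96% and 12.4% of their FGF8 UMIs in this group.

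Among the matrix proteins of osteoblast-like cells, *Ibsp* was at 1522 CPM in the FGF8 library (1482 to 1563 CPM) and 988 CPM in the BSA library (949 to 1027 CPM), a log2 ratio of 0.62 (0.56 to 0.69). It was found in 33.3% and 25.0% of the cells. *Dmp1* was at 150 CPM and 15.9 CPM, a log2 ratio of 3.24 (2.77 to 3.74), from 12 and 4 cells. In the FGF8 library 1 cell held 37.5% of these UMIs and in the BSA library 1 cell held 55%. Without the cell with the most *Spp1* of each library the *Dmp1* ratio was 3.71 (3.03 to 4.49). *Bglap2* was at 83.9 CPM and 9.12 CPM, a log2 ratio of 3.20 (2.59 to 3.88), from 24 and 5 cells. The BSA cell with the most *Spp1* held 18 of its 23 BSA UMIs, and without the top cells the ratio was 5.28 (4.04 to 6.92). *Bglap* was at 1690 CPM and 1266 CPM, a log2 ratio of 0.42 (0.36 to 0.48), and without the top *Spp1* cell of each library at 1392 CPM and 225 CPM, a log2 ratio of 2.63 (2.50 to 2.75). The size of the *Bglap* difference thus turned on 1 BSA cell, and it was -0.95 in cells called female, which include that cell, and 3.47 in cells called male. Since the split of reads between *Bglap* and *Bglap2* is uncertain, their sum is given too, at a log2 ratio of 0.48 (0.42 to 0.54). *Mepe* had 3 UMIs in 2 osteoblast-like FGF8 cells, 1 UMI in a chondrocyte-like BSA cell and none elsewhere, so nothing can be said of it at this depth.

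The enzymes and transcription factors of the same cells had ratios from -0.41 to 0.52. *Alpl* was at 160 CPM in the FGF8 library and 212 CPM in the BSA library, a log2 ratio of -0.41 (-0.58 to -0.24), in 58.6% and 61.0% of the cells. *Runx2* was at 586 CPM and 454 CPM, a log2 ratio of 0.37 (0.26 to 0.47), in 93.8% and 92.0% of the cells. *Sp7* was at 36.8 CPM and 32.1 CPM, a log2 ratio of 0.20 (-0.21 to 0.61), which lies within counting error. *Phex* was at 16.0 CPM and 11.1 CPM, a log2 ratio of 0.52 (-0.15 to 1.23), and 1.35 (0.50 to 2.28) without the top *Spp1* cells. It went opposite ways by sex, at 2.73 in cells called female and -2.98 in cells called male. *Sp7* was found in 33.3% and 27.0% of the cells. Of the 9 members with at least 10 UMIs, *Spp1*, *Bglap2* and *Dmp1* had a log2 ratio above 1 and none was below -1. Over the 12811 genes measured in these cells 5.81% lay above 1 and 5.91% below -1.

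**Figure D3:**
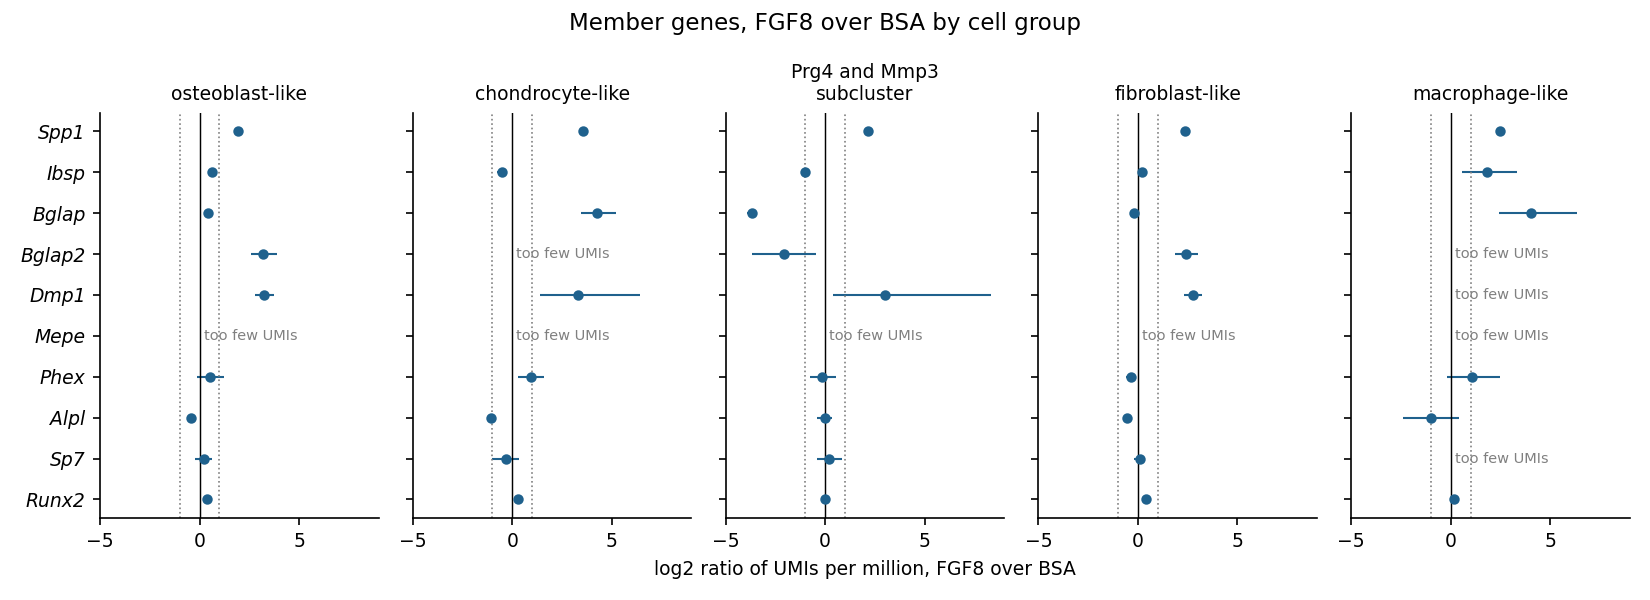
Log2 ratio of CPM, FGF8 over BSA, of each member in 5 cell groups, with exact 95% intervals for counting error; dotted lines mark 1 and -1, and genes under 10 UMIs, or at 0 in a library, are written as too few UMIs. *Spp1* is at 1.91 to 3.52 in all 5 panels, while *Alpl*, *Sp7* and *Runx2* lie between -1.10 and 0.42.

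In osteoblast-like cells called female, 35 FGF8 and 84 BSA cells, *Spp1* was at 43280 CPM and 5263 CPM, a log2 ratio of 3.04. In cells called male, 110 and 8, it was at 11667 CPM and 2323 CPM, a log2 ratio of 2.33. *Dmp1* had a ratio of 5.01 in cells called female and 0.34 (-0.43 to 1.24) in cells called male, and *Ibsp* 1.29 and 0.09 (-0.09 to 0.28). *Spp1* was thus higher in the FGF8 library in each sex, whereas *Ibsp* and *Dmp1* were so beyond counting error in cells called female alone, with 8 BSA cells behind the male values. Of the 239 *Dmp1* UMIs in FGF8 cells called male, 1 cell held 204, and the male ratio without that cell was not computed. The difference between the sexes was not tested.

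**Figure D4:**
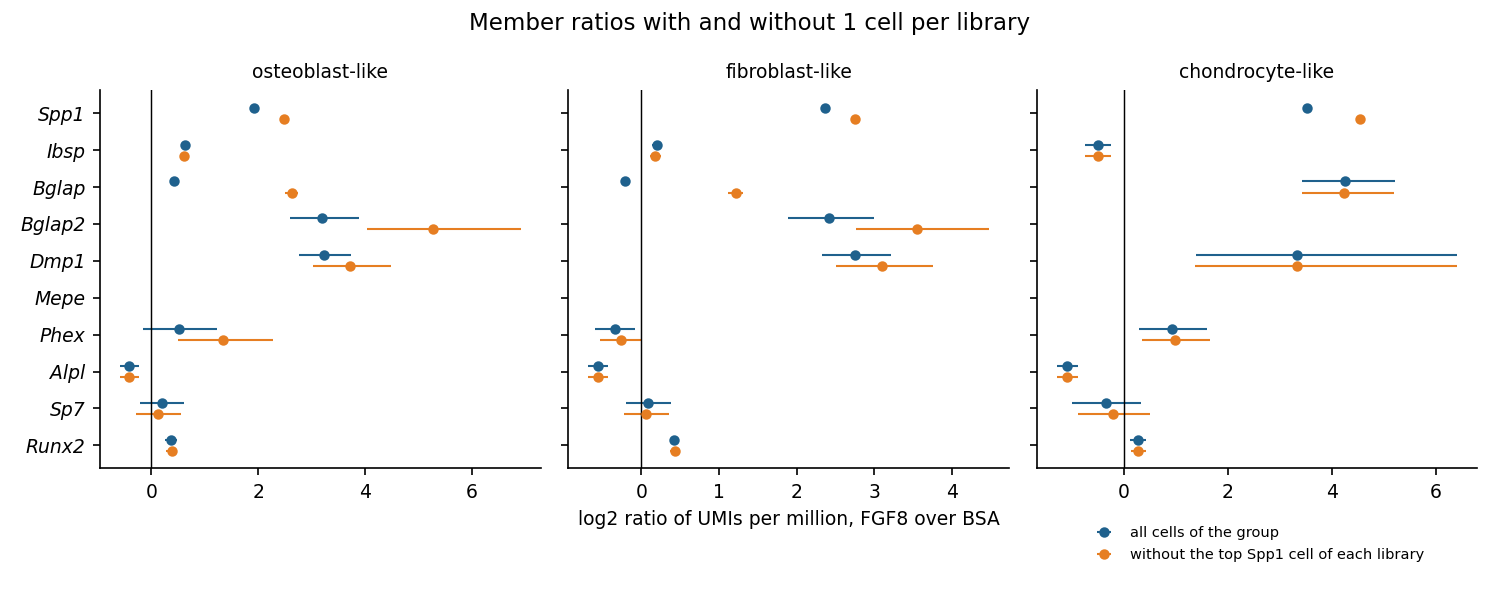
Log2 ratio of CPM, FGF8 over BSA, of each member with all cells of a group (blue) and without the cell of each library that held the most *Spp1* (orange), with exact 95% intervals for counting error. *Bglap* moves from -0.21 to 1.21 in fibroblast-like cells and from 0.42 to 2.63 in osteoblast-like cells, while *Alpl*, *Sp7* and *Runx2* hardly move.

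Summed over all 3577 FGF8 and 1845 BSA fibroblast-like cells, which include the osteoblast-like cells, *Dmp1* and *Bglap2* again had ratios above 1, while *Bglap*, *Alpl* and *Phex* lay below 0. *Dmp1* had 609 and 46 UMIs, a log2 ratio of 2.76 (2.32 to 3.22), and *Bglap2* 325 and 31 UMIs, a log2 ratio of 2.42 (1.89 to 3.0). *Ibsp* was at 92.3 CPM and 80.4 CPM, a log2 ratio of 0.20 (0.14 to 0.26). *Bglap* was at 91.7 CPM and 106 CPM, a log2 ratio of -0.21 (-0.27 to -0.15), which became 1.21 (1.12 to 1.31) without the top cells. It was -1.72 in cells called female and 4.12 in cells called male, and summed with *Bglap2* over all fibroblast-like cells it was -0.15. *Runx2* was at 119 CPM and 88.5 CPM, a log2 ratio of 0.42 (0.36 to 0.48), in 47.6% and 34.9% of the cells. *Alpl* was lower in the FGF8 library, at 16.3 CPM and 23.97 CPM, a log2 ratio of -0.56 (-0.68 to -0.43). *Phex* had a ratio of -0.35 (-0.60 to -0.09) and *Sp7* of 0.09 (-0.20 to 0.38). The median over the 9 measured members was 0.20, with 3 above 1 and none below -1, beside a median of -0.07 over the 20108 genes measured, of which 6.66% lay above 1 and 5.0% below -1.

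In the *Prg4* and *Mmp3* subcluster (1077 FGF8 and 285 BSA cells) *Spp1* and *Dmp1* had ratios above 1 and *Ibsp*, *Bglap* and *Bglap2* below -1. *Bglap* was lower in the FGF8 library, with 177 UMIs against 546, a log2 ratio of -3.68 (-3.93 to -3.43), although 1 BSA cell held 78.4% of the latter. *Ibsp* was at 18.6 CPM and 37.5 CPM, a log2 ratio of -1.01 (-1.20 to -0.82). That cell was also the one with the most *Spp1* of the BSA subcluster, and without the top *Spp1* cell of each library these ratios were -1.47 and -0.73. In cells called female *Bglap* was at -5.25 and *Ibsp* at -3.32, and in cells called male at 1.00 (-0.16 to 2.47) and 0.32 (-0.27 to 0.96), and both of the latter intervals include 0. *Runx2* was level at 114 CPM and 116 CPM, a log2 ratio of -0.02 (-0.12 to 0.08), and *Alpl* and *Sp7* lay within counting error of 0. *Bglap2* had 8 UMIs in each library, a log2 ratio of -2.06 (-3.67 to -0.44) that turned to 0.94 (-1.959 to 6.41) without the top cells, and *Dmp1* 33 and 1, a ratio of 2.99 (0.41 to 8.33). Of 9 measured members 2 lay above 1 and 3 below -1, against 5.16% and 9.38% of 17284 genes.

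Chondrocyte-like cells (133 and 53) had the most *Spp1* of the FGF8 library, and less *Ibsp*, *Bglap* and *Dmp1* than osteoblast-like cells in both libraries. *Ibsp* was at 104 CPM in the FGF8 library and 146 CPM in the BSA library, a log2 ratio of -0.50 (-0.75 to -0.25), but 1 BSA cell held 85.2% of the BSA UMIs. *Bglap* had 455 UMIs in 20 FGF8 cells and 12 UMIs in 6 BSA cells, a log2 ratio of 4.25 (3.43 to 5.21). *Dmp1* had 40 and 2 UMIs, a log2 ratio of 3.32 (1.38 to 6.42), and *Phex* 102 and 27, a ratio of 0.92 (0.29 to 1.59). *Alpl* was lower in the FGF8 library, at 125 CPM and 267 CPM, a log2 ratio of -1.10 (-1.30 to -0.89). *Runx2* was at 391.5 CPM and 326 CPM, a ratio of 0.26 (0.11 to 0.41), and *Sp7* had a ratio of -0.34 (-0.999 to 0.33). *Bglap2* had 5 and 0 UMIs. Of the 8 measured members 3 lay above 1 and 1 below -1, beside 11.1% and 5.90% of 11978 genes.

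Within each sex the *Spp1* values of chondrocyte-like cells were as follows. In cells called female *Spp1* was at 65375 CPM in 40 FGF8 cells and 1251 CPM in 39 BSA cells, a log2 ratio of 5.71. In cells called male it was at 21215 CPM in 78 FGF8 cells and 9085 CPM in 11 BSA cells, a log2 ratio of 1.22 (1.17 to 1.28). *Alpl* went opposite ways, with log2 ratios of -3.96 in cells called female and 2.05 in cells called male, as did *Runx2* at 0.69 and -0.66. *Bglap* did so too. It was at -3.39 in cells called female, from 1 FGF8 and 12 BSA UMIs. In cells called male it had 425 and 0 UMIs, a ratio of at least 4.51 with a floor of 3 counts. *Ibsp* was higher in the FGF8 library within each sex, at 1.76 and 2.93, although its ratio over all cells was below 0. Of the 229 *Ibsp* UMIs of the BSA library, cells called female held 29 and cells called male 5. The cell that held most *Ibsp* UMIs of the BSA group thus had no sex call and is in neither value. For *Spp1* the FGF8 value was the higher one in both sexes. The single BSA cell named above held 2619 of the 2654 *Spp1* UMIs of the 11 male BSA cells. Without the cell with the most *Spp1* of each library the ratio was 6.04 (5.96 to 6.13) in cells called female and 7.20 (6.72 to 7.72) in cells called male, so the order of the sexes turned on 1 cell. The difference between the sexes was not tested. Chondrocyte-like FGF8 cells also held more UMIs of erythroid markers than the BSA cells, 2399 CPM against 118 CPM summed over 6 genes, with 1 and 2 of them at 0, and of macrophage markers, 116 CPM against 8.30 CPM over 7 genes, with 0 and 3 at 0. The part of these in the *Spp1* value was not tested.

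Macrophage-like cells (895 and 470) had few UMIs of any member but *Spp1* and *Runx2*. *Runx2* was at 49.7 CPM and 44.1 CPM, a log2 ratio of 0.17 (-0.05 to 0.40). *Bglap* had 88 and 3 UMIs, of which 1 FGF8 cell held 71.6%, and *Ibsp* 38 and 6. The FGF8 macrophage-like cell with the most *Spp1*, with 2340 UMIs (25.4% of the group's), also held 20 UMIs of *Ibsp* and 26 of *Runx2* and was among the cells with the highest doublet scores. With that cell and the top BSA cell left out, the log2 ratio of *Spp1* was 2.32, and it was 2.14 in cells called female and 1.88 in cells called male. Cartilage genes were higher beside it: 20 of 22 measured had a ratio above 0 and 16 above 1, with *Col2a1* at 990 and 125 UMIs. Of all 15328 genes measured in these cells 8588 lay above 0 and 1365 above 1. The 10 chondrocyte markers summed to 202 CPM and 57.8 CPM with none at 0, and their part in the result was not tested. Of 6 measured members 4 lay above 1 and none below -1, beside 8.91% and 3.31% of 15328 genes.

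To ask whether *Spp1* lay in the same cells as the bone genes, UMIs were drawn at random until each cell held 2000, and cells below that depth,  395 FGF8 and 193 BSA fibroblast-like cells, were dropped. Of 65 fibroblast-like FGF8 cells with *Ibsp*, 54 had *Spp1* (83.1%, 71.7 to 91.2%), against 30.8% of those without *Ibsp*. In the BSA library it was 18 of 25 (72.0%, 50.6 to 87.9%) against 3.63%. With *Bglap* the shares were 41 of 49 and 14 of 24 cells, with *Sp7* 16 of 22 and 2 of 10. *Bglap2*, in the FGF8 library, was joined by *Spp1* in 17 of 17 cells and *Dmp1* in 15 of 17. For the more widely found genes, 43.5% of 485 FGF8 cells with *Runx2* and 42.7% of 75 with *Alpl* had *Spp1*, against 29.8% and 31.6% of the rest. After the same thinning 14.9% of smooth muscle or pericyte-like and 20.04% of erythroid-like FGF8 cells had a *Spp1* UMI, and 0.556% and 1.32% in the BSA library. The share was 21.7% and 0% in Schwann-like cells and 53.7% and 7.43% in neutrophil-like cells, so the FGF8 shares of cells without a bone gene are not read as expression. Without thinning and with at least 10 *Spp1* UMIs asked for, the shares were 61.3% of 150 FGF8 cells with *Ibsp* against 15.3% of the rest, and 36.1% of 61 BSA cells against 1.40%.

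**Figure D5:**
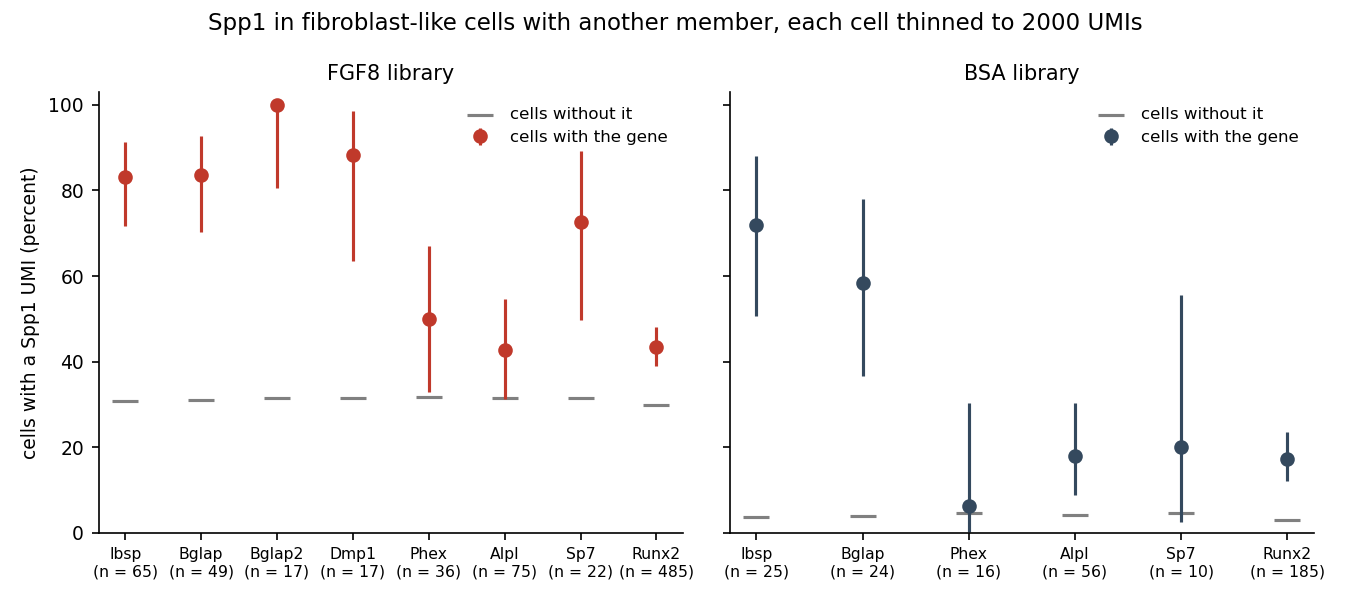
Percent of fibroblast-like cells with a *Spp1* UMI among cells that hold another member (points, exact 95% binomial intervals) and among those that do not (grey dashes), each cell thinned to 2000 UMIs, in the FGF8 library (left) and the BSA library (right); members in fewer than 10 cells of a library are not drawn. Cells with *Ibsp* are at 83.1% and 72.0%, and those without at 30.8% and 3.63%.

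*Spp1* was higher in cells with more of the other members, although both counts depend on depth. Among fibroblast-like FGF8 cells the median depth was 11655 UMIs with none of the other members and 24249 with 3 or more. In unthinned fibroblast-like cells the median was 1 *Spp1* UMI in FGF8 cells with none of the 9 other members, 2 with 1 or 2 of them, and 111 with 3 or more. In the BSA library the median was 0 with up to 2 other members and 3 with 3 or more. Erythroid-like and smooth muscle or pericyte-like cells averaged 0.869 and 1.01 *Spp1* UMIs in the FGF8 library and 0.122 and 0.0645 in the BSA library. Medians of 1 and 2 in FGF8 cells are near that background and are not read as expression. The 143 FGF8 cells with 3 or more other members, 4.00% of the type, held 47.8% of its *Spp1* UMIs, and the 64 such BSA cells, 3.47%, held 88.9%. In FGF8 cells with none of the other members *Spp1* still averaged 8.01 UMIs, against 0.156 in BSA cells.

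The split by *Ibsp*, *Bglap* and *Bglap2* shows where the difference between libraries lay. In the BSA library the 91 fibroblast-like cells with a UMI of one of these 3 genes, 4.93% of the type, held 90.1% of the *Spp1* UMIs. In the FGF8 library the 210 such cells, 5.87%, held 50.4%. Cells without them averaged 27.1 *Spp1* UMIs with FGF8 and 1.02 with BSA, and 15.1% and 1.25% of them were *Spp1*-high. Per fibroblast-like cell the difference between libraries was carried for 59.0% by cells without these genes, 25.5 against 0.974 UMIs, and for the rest by cells with them, 25.9 against 8.86 UMIs. That share was 31.9% in cells called female, 64.6% in cells called male and 42.7% with a stricter cell filter, so which class carried more of the difference depended on these choices. With such cells left out the *Spp1* log2 ratio was 4.71 (4.64 to 4.78), larger than the 2.37 of all fibroblast-like cells. In chondrocyte-like cells 83.9% of the difference lay in cells without them. A cell without a UMI of a gene may still express it, since detection depends on depth.

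Cartilage genes were found with *Spp1* in both chondrocyte-like and fibroblast-like cells, and where their UMIs lay differed by gene. In the FGF8 library *Col2a1* had 82083 UMIs in chondrocyte-like and 1934 in fibroblast-like cells, while *Acan* had 8890 and 10309. All 133 thinned FGF8 cells of the chondrocyte-like group had a *Col2a1* UMI, so 108 of 133 (81.2%) had both, as had 17 of 53 in the BSA library (32.1%). The next genes were picked after their values were seen, and the counts are not thinned. In that group 36 of 38 FGF8 cells with *Col10a1*, the collagen of hypertrophic cartilage, were *Spp1*-high against 74.7% of the rest, and 53 of 57 with *Ihh* against 71.1%. In the BSA library it was 9 of 15 against 23.7% and 9 of 16 against 24.3%. For *Ucma*, a gene of immature distal chondrocytes, it was 72 of 98 FGF8 cells against 100% of the rest and 13 of 47 BSA cells against 83.3%. In thinned fibroblast-like cells, 51.1% of FGF8 cells with *Sox5* and 42.3% of those with *Col2a1* had *Spp1*, against 30.4% and 31.4% of the rest. *Prg4* and *Mmp3*, which are no bone genes, were joined by *Spp1* in 51.5% and 53.9% of FGF8 cells with them, against 24.7% and 26.1%.

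Other genes of the same processes were taken from fixed lists. Of 39 further osteoblast lineage genes, 37 were measured in fibroblast-like cells, with a median log2 ratio of -0.33, 5 above 1 and 5 below -1. *Col1a1* and *Col1a2*, the chains of type I collagen, were at -1.09 and -0.87, *Sparc* (osteonectin) at -0.72 and *Col5a2*, a chain of type V collagen, at -0.66. Among those with at least 100 UMIs the highest were *Fgf23*, the phosphate hormone of osteocytes, at 2.09 and *Tnfsf11*, which encodes RANKL, at 2.08. The lowest were *Ostn* (osteocrin) at -1.40 and *Smpd3*, a sphingomyelinase, at -1.36. The *Fgf23* UMIs lay outside the osteoblast-like cells, which held 0 in each library. Of the 2580 *Tnfsf11* UMIs of the FGF8 library, 2104 were in the *Prg4* and *Mmp3* subcluster and 230 in osteoblast-like cells. In osteoblast-like cells the median of the 34 measured was -0.22, with 5 above 1 and 5 below -1, and *Ank*, a pyrophosphate transporter, was at 2.23, *Fam20c*, the kinase that phosphorylates SIBLING proteins, at 2.06 and *Smpd3* at -1.77. Over all genes measured in osteoblast-like cells 5.81% lay above 1 and 5.91% below -1. The list was thus not higher as a whole where *Spp1* and *Dmp1* were.

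The cartilage list of 23 genes had a median of -0.94 in fibroblast-like, -0.77 in osteoblast-like and -0.67 in chondrocyte-like cells, with 1 gene above 1 in each and 10, 8 and 5 below -1. In chondrocyte-like cells *Col2a1*, the main cartilage collagen, was at -0.37, *Col10a1* at -1.41, *Matn1* (matrilin-1) at -1.42 and *Chad* (chondroadherin) at 1.71. In chondrocyte-like cells 19 of the 23 cartilage genes lay below 0, beside 6199 of all 11978 genes measured, while *Spp1* lay above it. Of the mineralisation genes of those cells *Ank* was at 2.99, *Enpp1*, which makes pyrophosphate, at 2.14 and the phosphate transporter *Slc20a1* at 2.83, while *Alpl* was at -1.10 and *Smpd3* at -2.15. *Tnfrsf11b* (osteoprotegerin) was at 4.41. Among receptors and partners of the SIBLING proteins the osteopontin receptor *Cd44* was at 0.62 in fibroblast-like cells, the integrins *Itgb1* at 0.10 and *Itga8* at -1.19, and *Mmp3*, which cleaves osteopontin, at 4.34. Osteoclast genes had a median of -0.03 in fibroblast-like and -0.38 in macrophage-like cells, where *Ctsk* was at -0.39 and *Acp5* at -0.45.

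The genes most like *Spp1* over the 16 cell groups of both libraries (32 points, which share libraries and depth, by Pearson correlation of log2(CPM + 1) among 16250 genes) were *Mmp13* at 0.90, *Prg4* at 0.80, *Lrp8os2* at 0.80, *Hmga2* at 0.79 and *Mmp3* at 0.76. For *Ibsp* they were *Bglap* at 0.91, *Podnl1* at 0.86, *Mmp13* at 0.83, *Galr2* at 0.81 and *Panx3* at 0.80. Some of these genes were low, with *Lrp8os2* at 5.11 CPM and *Galr2* at 16.8 CPM at most in any group. The points also include the cell types whose *Spp1* is read as background above. *Spp1* and *Ibsp* correlated at 0.73, which placed *Ibsp* 16th for *Spp1* and *Bglap* 10th. *Alpl* and *Sp7* came further down, at 0.35 and 0.49.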

How the data were processed

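Cells from tissue distal to the P2 stump were captured with 10x Genomics 3′ chemistry (version 3.1), in 1 library per bead. The deposited files hold raw UMI counts per gene and barcode, which the authors made with Cell Ranger 9.0.0 on GRCm39; the submitters' processing notes also name mm10 and Seurat. Coordinates were read from GRCm39. Cells passed with over 200 and under 7500 detected genes and less than 15% mitochondrial UMIs. Libraries were integrated and clustered in Seurat 5.3.0 with sctransform 0.4.2 at a resolution of 0.05, and fibroblast-like cells again at 0.2, leaving the 10 genes out of the features. Osteoblast-like cells were separated at 0.8, chosen after seeing the data. A gene counted as measured from 10 UMIs, summed over the 2 libraries.

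UMIs were summed per library and cell group, and log2 ratios carry exact conditional 95% intervals. PCR and cells are not replicates, so intervals cover counting error only, and with 1 library per condition no test was made. A gene at 0 in a library entered medians at a floor of 3 counts. Ratios and thinning were tested on simulated data.

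The members, lists and comparisons were chosen with earlier results of these data known. Named genes were the members and, of each list, the 4 with the most UMIs and, with at least 100 UMIs, the 2 highest and 2 lowest ratios, of which a selection is printed; co-detection names were picked after their values were seen.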

Additional observations from a re-analysis of the deposited data

Results flagged for a closer look

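The log2 ratio of some members had opposite signs in cells called female and in cells called male. In osteoblast-like cells *Bglap* was at -0.95 in cells called female and 3.47 in cells called male, and *Phex* at 2.73 and -2.98. In all fibroblast-like cells *Bglap* was at -1.72 and 4.12. In chondrocyte-like cells *Alpl* was at -3.96 and 2.05, *Runx2* at 0.69 and -0.66, and *Bglap* at -3.39 in cells called female and at least 4.51 in cells called male, where the BSA library had 0 UMIs and a floor of 3 counts was used. The difference between the sexes was not tested, since each library was 1 pool. The BSA values in cells called male rest on 8 osteoblast-like and 11 chondrocyte-like cells, and the female BSA value of *Bglap* in osteoblast-like cells includes the cell with 2630 of its UMIs.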

How the results depend on the processing

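With 1 library per condition no replicate could be left out, and no paired analysis was possible because each group had a single library. Of the recomputed values 62 moved beyond counting error, 6 changed sign and 78 did neither. *Spp1* was higher in the FGF8 library under every alternative run in the 4 cell groups; the cause of a shift was not tested. In fibroblast-like, macrophage-like and chondrocyte-like cells its log2 ratio (2.37, 2.46 and 3.52) was 2.51, 1.97 and 3.43 with the stricter cell filter on the same clusters, 2.32, 1.81 and 3.66 with types called per cell, 2.77, 2.01 and 3.41 with cells weighted equally, 2.67, 2.14 and 5.71 in cells called female and 2.86, 1.88 and 1.22 in cells called male. It was 2.34 in fibroblast-like cells at a resolution of 0.2, 2.34 and 2.02 in fibroblast-like and macrophage-like cells without integration, 2.04 in macrophage-like cells with all variable features and 2.02 without the highest Scrublet scores. Thinning to 2000 UMIs gave 2.72 and 2.06 in fibroblast-like and macrophage-like cells, thinning to 5000 gave 2.49 in fibroblast-like and 3.46 in chondrocyte-like cells, and centring on all genes 2.44 in fibroblast-like cells. The share of the difference in cells without *Ibsp* and *Bglap* (59.0%) was 42.7% with the stricter filter, 60.0% at a resolution of 0.2, 59.8% without integration, 58.1% with all features, 60.7% with types called per cell, 57.2% thinned to 2000 UMIs, 57.8% without the highest Scrublet scores, 31.9% in cells called female and 64.6% in cells called male. The median of the osteoblast lineage list (-0.33) was -0.038 thinned to 2000 UMIs. *Bglap* in fibroblast-like cells (-0.21) turned to 0.022 with cells weighted equally, 0.14 and 0.26 thinned to 2000 and 5000 UMIs and 4.12 in cells called male, and *Bglap2* (2.42) to -0.15 when summed with *Bglap*.

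Other alternatives were chosen after seeing the data. Without the cell with the most *Spp1* the ratio was 2.76, 2.32 and 4.54 in the same 3 groups, *Bglap* 1.21 and the share 58.1%. In chondrocyte-like cells called female and called male it was then 6.04 and 7.20. With cells holding *Ibsp*, *Bglap* or *Bglap2* left out it was 4.71, 1.98 and 3.83, and without the low-UMI *Lars2* and *Camk1d* subcluster 2.34 in fibroblast-like cells. Less the background mean the share was 58.3%. With 10 or more *Spp1* UMIs and no thinning, 61.3% of FGF8 cells with *Ibsp* counted, against 83.1% with 1 or more after thinning and 135 of 150 cells with 1 or more and no thinning. Depth limits *Mepe*, with 3 and 1 UMIs in all cells, and the absence of a gene from a cell.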
